A study of Mus musculus with 29 samples.

Results

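Basp1 and Evl are genes of growth cone proteins, and their rows were taken by symbol from gene expression tables of libraries labelled as sorted mouse pyramidal neurons. Both genes were found among the 9872 genes of the amygdala tables, and 0 of the 2 among the 6080 genes of the medial prefrontal cortex tables, so all of their values below are from the amygdala. The neurons carried a YFP reporter under the neuronal Thy1 promoter in the mouse line B6.Cg-Tg(Thy1-YFP)HJrs/J, were sorted by fluorescence from dissociated tissue punches, and were sequenced with a kit for ultra-low RNA input with removal of ribosomal RNA. The labels grouped the mice as Sus-T or Res-T and as with or without trauma, in a study of inefficient fear extinction, and gave neither the ages nor the trauma procedure. The amygdala libraries used here were 4 of Sus-T with trauma, 2 of Sus-T without trauma, 4 of Res-T with trauma and 3 of Res-T without trauma, all from the reporter line. The labels gave no number of animals behind the libraries of a group, and the design text spoke of 9 mice for 13 amygdala libraries. The p-values therefore measure the spread between libraries, which may be technical in part.

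A growth cone is the moving tip of an extending axon or dendrite, where the membrane is linked to a network of actin filaments that grows and shrinks. Basp1 encodes a myristoylated membrane protein, also called CAP-23 or NAP-22, that belongs with Gap43 and Marcks to the GMC group of proteins, which bind calmodulin and the lipid PIP2 and help to hold actin regulators at the membrane. Evl encodes a member of the Ena/VASP family, which lets actin filaments lengthen at filopodia and lamellipodia by keeping capping proteins off their growing ends. In the adult brain both kinds of protein are also known from synapses, where actin shapes terminals and spines.

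In the GENCODE M21 annotation of GRCm38.p6, Basp1 (ENSMUSG00000045763) lies on the minus strand of chromosome 15 from 25363277 to 25413764, with 2 annotated transcripts whose coding part is in 1 exon, and no other annotated gene overlaps it. Evl (ENSMUSG00000021262) lies on the plus strand of chromosome 12 from 108554720 to 108688516 and has 7 annotated transcripts, 6 of them protein coding, with up to 14 coding exons. It hosts the microRNA gene Mir342 and overlaps the opposite-strand genes Gm16596 by 899 bases and Degs2 by 9806 bases, none of which had a row in the amygdala tables. Whether reads were assigned by strand is not given in the sources used here, so reads of an opposite-strand partner counted under Evl cannot be told apart.

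The promoters of both genes are printed as a description, and no link between them and the levels of either gene was tested. RefSeq listed 1 start for Basp1 and 2 for Evl on GRCm38.p6, and the 250 bases before each start are printed on the gene's own strand, with every GC box (GGGCGG, or CCGCCC for the other strand) in capitals.
Basp1, chr15:25413765-25414014, minus strand: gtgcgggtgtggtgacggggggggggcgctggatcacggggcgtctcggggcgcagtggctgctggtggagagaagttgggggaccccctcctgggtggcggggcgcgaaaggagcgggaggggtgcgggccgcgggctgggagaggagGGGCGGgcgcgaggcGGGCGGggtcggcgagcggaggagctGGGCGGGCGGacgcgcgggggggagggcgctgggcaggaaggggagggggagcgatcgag
Evl, first start, chr12:108554470-108554719, plus strand: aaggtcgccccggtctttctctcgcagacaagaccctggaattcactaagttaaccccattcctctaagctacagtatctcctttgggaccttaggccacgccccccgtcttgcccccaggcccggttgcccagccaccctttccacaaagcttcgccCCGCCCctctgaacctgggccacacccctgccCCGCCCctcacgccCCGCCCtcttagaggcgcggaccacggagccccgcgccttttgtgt
Evl, second start, chr12:108605516-108605765, plus strand: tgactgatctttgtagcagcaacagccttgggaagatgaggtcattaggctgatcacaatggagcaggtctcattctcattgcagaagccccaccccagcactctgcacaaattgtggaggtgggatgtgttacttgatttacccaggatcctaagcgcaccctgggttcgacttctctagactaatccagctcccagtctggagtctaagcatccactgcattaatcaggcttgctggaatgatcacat

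The Basp1 promoter held 4 GC boxes, 2 of them overlapping, and the first Evl promoter held 3, while the second Evl promoter held 0. Of 32851 mouse promoter windows of the same length, 32.7% held at least 1 GC box. The share of G and C was 78.8% before the Basp1 start, 64% before the first Evl start and 49.2% before the second, against a median of 52.4% over all windows. The half-site of the cAMP response element (TGACG or CGTCA) occurred 1 time before Basp1 and 0 times before either Evl start, and 17.8% of all windows held it. E-boxes (CANNTG, 66.2% of windows), TATA boxes (TATAAA or TTTATA, 12.4%) and CCAAT boxes (CCAAT or ATTGG, 33.8%) occurred 0 times in the 3 stretches. The tables give 1 value per gene, so the use of the Evl starts was not analysed here.

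Basp1 levels are given as the signal that the authors deposited, in arbitrary units, with no scaling by length stated. In bulk libraries of this kind, fewer cells of a type and less RNA per cell cannot be told apart. In Sus-T amygdala with trauma the 4 libraries had Basp1 signals of 352, 305, 357 and 349. In Sus-T without trauma the 2 libraries had Basp1 signals of 491 and 469. In Res-T with trauma the 4 libraries had Basp1 signals of 199.9, 192, 233 and 152, and in Res-T without trauma the 3 libraries had 59.5, 58.8 and 46.4. No group overlapped another: Sus-T without trauma was highest, followed by Sus-T with trauma, Res-T with trauma and Res-T without trauma. The group means were 341 ± 23.8 (SD, n = 4) in Sus-T with trauma, 480.1 ± 15.1 (SD, n = 2) in Sus-T without trauma, 194 ± 33.3 (SD, n = 4) in Res-T with trauma and 54.9 ± 7.38 (SD, n = 3) in Res-T without trauma. The spread within a group was small, with a coefficient of variation from 3.14% in Sus-T without trauma to 17.2% in Res-T with trauma.

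Evl followed the same order at its own scale. In Sus-T amygdala with trauma the 4 libraries had Evl signals of 138, 128, 157 and 109. In Sus-T without trauma the 2 libraries had Evl signals of 168 and 182. In Res-T with trauma the 4 libraries had Evl signals of 91.6, 120.0, 90.8 and 79.6, and in Res-T without trauma the 3 libraries had 21.9, 24.3 and 33.6. Sus-T without trauma lay above all other libraries and Res-T without trauma below all others, but the 2 groups with trauma overlapped, since Sus-T replicate 4 lay below Res-T replicate 2. The group means were 133 ± 20.2 (SD, n = 4) in Sus-T with trauma, 175 ± 9.97 (SD, n = 2) in Sus-T without trauma, 95.5 ± 17.2 (SD, n = 4) in Res-T with trauma and 26.6 ± 6.20 (SD, n = 3) in Res-T without trauma.

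**Figure D1:**
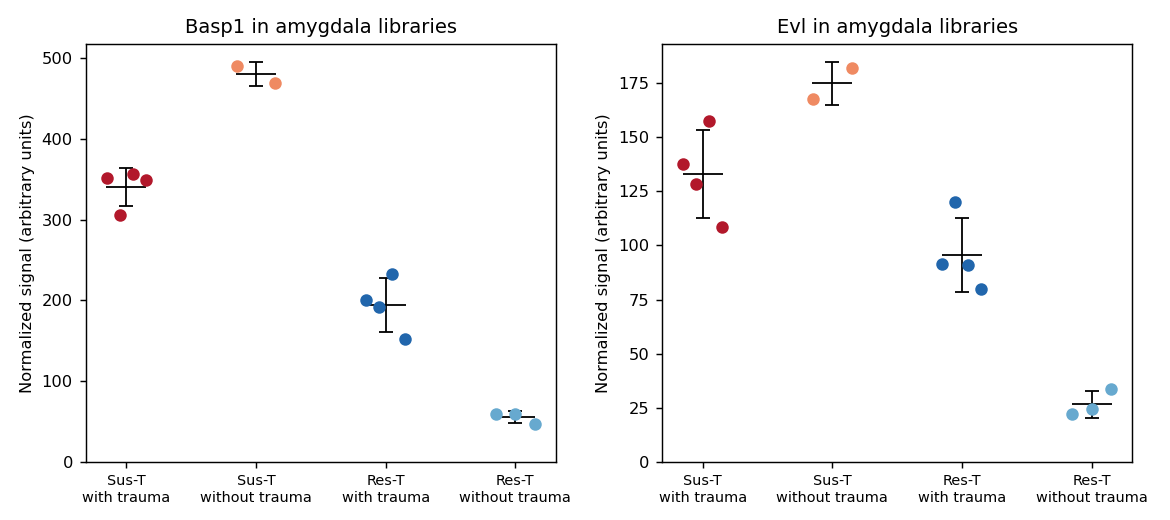
Deposited normalized signal (arbitrary units, y axis from 0) of Basp1 (left) and Evl (right) in each amygdala library by group, with points for libraries and bars for the mean and SD. Basp1 groups do not overlap, with means from 54.9 in Res-T without trauma to 480.1 in Sus-T without trauma, while the 2 Evl groups with trauma do overlap.

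Without trauma, Basp1 was 8.66 times as high in Sus-T as in Res-T amygdala, a log2 difference of 3.11 ± 0.23 (SE) on the scale of log2(signal + 1). Evl was 6.47 times as high, a log2 difference of 2.69 ± 0.31 (SE). In order of log2 difference from the highest, Basp1 stood 25th and Evl 70th of 9872 genes. The pair was selected on its signals in this comparison, so these values are a description and carry no test. The background was broad as well: in 27.7% of all genes both Sus-T signals exceeded the 3 Res-T signals, and limma called 12.4% of all genes higher and 15% lower at an adjusted p under 0.05. These 2706 calls were 1565 without Sus-T replicate 1 and 25 with the mean of oligodendrocyte markers as a covariate.

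With trauma, the comparison shares no library with that one. The model's spread was pooled over all 4 groups, however, those that the choice used among them, so the test is not fully independent of the choice. Basp1 was 1.77 times as high in Sus-T as in Res-T, a log2 difference of 0.82 ± 0.18 (SE) with a 95% interval from 0.44 to 1.2, and its 4 Sus-T signals exceeded its 4 Res-T signals without overlap. It did not pass the threshold of 0.05 (adjusted p = 0.0871 over 9872 genes in limma). Of all genes, 3.46% were separated in that way. Evl was 1.39 times as high, a log2 difference of 0.48 ± 0.24 (SE) with a 95% interval from -0.03 to 0.99 (adjusted p = 0.455 in limma). Fitted on the libraries with trauma alone, limma's adjusted p was 0.23 for Basp1 and 0.588 for Evl. Limma called 0 genes (0%) in this comparison, against 1142 at an unadjusted p under 0.05.

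Libraries of mice with trauma differed from those without trauma in opposite directions in Sus-T and Res-T. In Res-T the Basp1 signal with trauma was 3.47 times that without, a log2 difference of 1.80 ± 0.20 (SE), and the Evl signal was 3.51 times as high, a log2 difference of 1.81 ± 0.26 (SE). All 4 libraries with trauma lay above all 3 without in both genes, as in 9.68% of all genes. In Sus-T the Basp1 log2 difference was -0.50 ± 0.22 (SE) and that of Evl -0.40 ± 0.30 (SE), and all 4 libraries with trauma lay below both without in each gene, as in 7.77% of all genes. The difference between these trauma effects, Sus-T minus Res-T, was -2.29 ± 0.30 (SE) for Basp1 and -2.22 ± 0.39 (SE) for Evl on the log2 scale, a difference in which limma called 6.74% of all genes (4.76% higher and 1.98% lower). Those 665 calls were 59 without Sus-T without trauma replicate 1, 340, 340 and 379 without replicates 1, 2 and 3 of Res-T without trauma, and 2 with the oligodendrocyte covariate. These 3 comparisons share libraries with the comparison that the choice of the pair used, so they too are descriptions without a test. The Sus-T to Res-T gap of Basp1 was 1.77-fold with trauma and 8.66-fold without, and that of Evl 1.39-fold with trauma and 6.47-fold without.

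**Figure D2:**
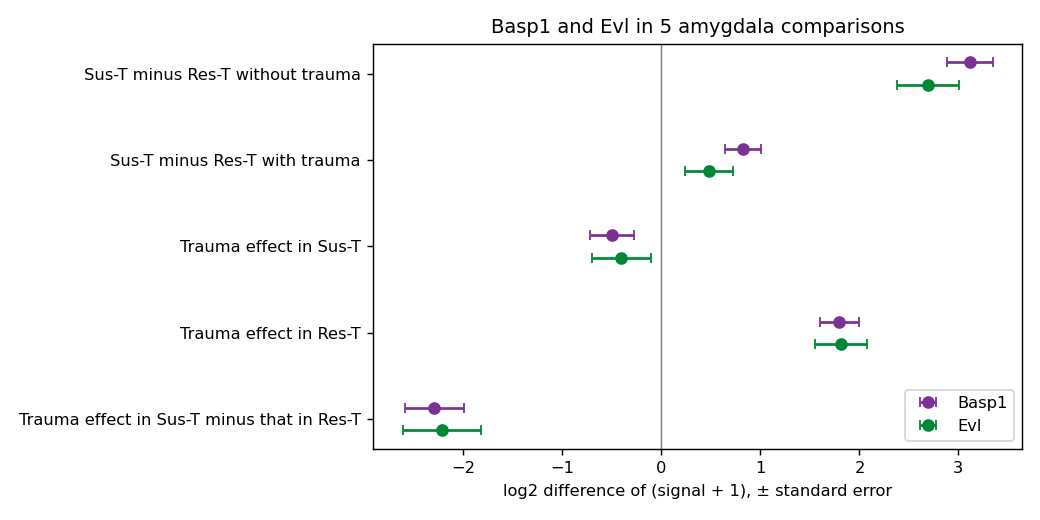
Log2 differences of (signal + 1) between amygdala groups (x axis) for Basp1 and Evl in 5 comparisons (rows), with bars for the standard error of the linear model. Both genes lie near 3 in Sus-T minus Res-T without trauma (3.11 and 2.69), nearer 0 with trauma (0.82 and 0.48), and on opposite sides of 0 for trauma in Sus-T and in Res-T.

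As a measure of likeness, Pearson's r of log2(signal + 1) between Basp1 and Evl over the 13 amygdala libraries was 0.959, and each gene was the 7th most alike to the other among 9871 genes. This likeness lies between the groups, which the libraries of a group share. Both genes were selected on Sus-T and Res-T without trauma, the groups at the ends of this range. A high r and a close rank therefore follow in part from the choice of the pair. For deviations from the group means r was -0.112, and Evl stood 6162nd in likeness to Basp1. Over all libraries the genes most like Basp1 were Khdrbs3, an RNA-binding protein (r = 0.969), Fam213b (0.963), Sgsm1 (0.963), the AMPA receptor auxiliary subunit gene Shisa7 (0.963) and the beta-catenin gene Ctnnb1 (0.962). Those most like Evl were the G protein gamma subunit gene Gng2 (r = 0.977), Sgsm1 (0.976), the phosphatase gene Ppm1e (0.967), Tmem64 (0.963) and the BK potassium channel gene Kcnma1 (0.963). Within groups, the leading genes were C1ql1 (r = 0.886), Zfp526 (0.877), Rtl8a (0.868), Shisa7 (0.861) and Prelid1 (0.845) for Basp1, and Klhdc8b (0.933), the diacylglycerol lipase gene Dagla (0.926), Gpc4 (0.875), Abcc4 (0.865) and Mrpl34 (0.863) for Evl. Sgsm1 was on both lists over all libraries, and Shisa7 was on both lists of Basp1. All of these r are the highest of a search over the genes with symbols in only 13 libraries. They are high in part by that choice, and none was tested.

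**Figure D3:**
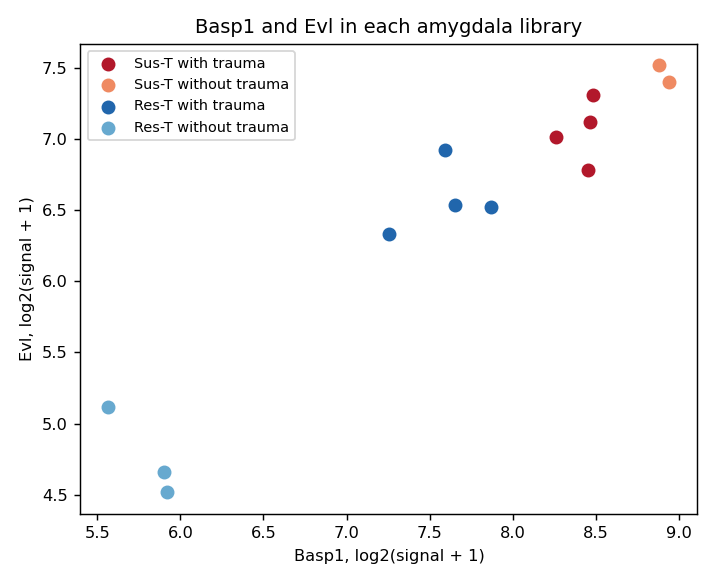
Evl against Basp1, each as log2(signal + 1), in the 13 amygdala libraries, coloured by group. The groups line up from Res-T without trauma at the lower left to Sus-T without trauma at the upper right (r = 0.959 over libraries), with no such line within groups (r = -0.112 for deviations from group means). The pair was selected on the groups at these ends.

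The nearest relatives of Basp1, which was itself selected on this comparison, had smaller differences between the groups without trauma. Of the other GMC genes, Marcks and Marcksl1 had rows in the amygdala tables and Gap43 did not. Marcks, a myristoylated substrate of protein kinase C, had a signal of 1342 ± 316 (SD, n = 2) in Sus-T and 942 ± 154 (SD, n = 3) in Res-T without trauma, with overlapping libraries (log2 difference 0.50 ± 0.23 SE, adjusted p = 0.115 in limma). Its smaller homologue Marcksl1 had 241 ± 3.90 (SD, n = 2) in Sus-T and 287 ± 18.7 (SD, n = 3) in Res-T (log2 difference -0.25 ± 0.25 SE, adjusted p = 0.495 in limma). With trauma the Marcks signal was 1278 ± 119 in Sus-T and 964 ± 230.1 in Res-T (SD, n = 4 each, log2 difference 0.43 ± 0.18 SE, adjusted p = 0.357 in limma). Marcksl1 had a log2 difference of -0.02 ± 0.19 (SE) with trauma.

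The other Ena/VASP genes, Enah and Vasp, both had rows. Enah, whose protein is also called Mena, rose 1.86-fold in Sus-T without trauma, with signals of 1021 and 1341 in Sus-T and of 620.1, 672 and 596 in Res-T (log2 difference 0.90 ± 0.27 SE, adjusted p = 0.0198 in limma). Enah did not pass without Res-T replicate 1 or 3 or without Sus-T replicate 3 (adjusted p = 0.0517, 0.0572 and 0.166 in limma). Vasp had a signal of 74.8 ± 22.2 (SD, n = 2) in Sus-T and 49.9 ± 12.1 (SD, n = 3) in Res-T, with overlapping libraries (log2 difference 0.57 ± 0.38 SE, adjusted p = 0.279 in limma). With trauma, Enah had a log2 difference of 0.30 ± 0.21 (SE) and Vasp of -0.03 ± 0.29 (SE), and neither passed. The log2 difference without trauma was thus 2.69 for Evl, 0.90 for Enah and 0.57 for Vasp. That compares differences and not levels, and no test was made between them. Evl was selected on its signals in this comparison, while Enah and Vasp were named as its family. A larger difference for Evl follows in part from that choice.

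**Figure D4:**
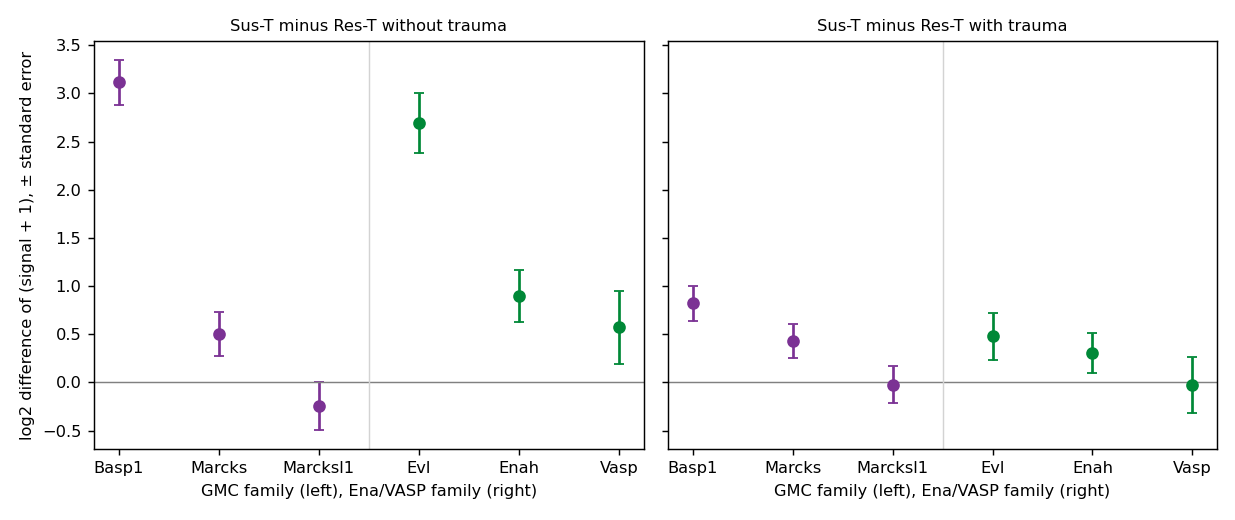
Log2 differences of (signal + 1), Sus-T minus Res-T (y axis, ± standard error of the linear model), without trauma (left) and with trauma (right), for Basp1 and its GMC relatives and for Evl and its Ena/VASP relatives in the amygdala. Without trauma Basp1 (3.11) and Evl (2.69) lie above their relatives, which run from -0.25 (Marcksl1) to 0.90 (Enah). Basp1 and Evl were selected on this comparison and the relatives named as families, so the gap follows in part from the choice.

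Genes that act on Basp1 and its group, the N-myristoyltransferases, palmitoyltransferases, protein kinases C, and calmodulins with their buffers, mostly rose in Sus-T without trauma (8 of 12 measured members higher and 1 lower), with a median log2 difference of 1.31 against -0.03 over all genes. Calls over all genes were 12.4% higher and 15% lower. Without Sus-T replicate 1, 5 of the 12 were higher. Prkce, protein kinase C epsilon, rose 6.54-fold to 463 ± 79.6 (SD, n = 2) in Sus-T, against 69.8 ± 8.62 (SD, n = 3) in Res-T. The calmodulin gene Calm3 rose 2.82-fold (log2 difference 1.50 ± 0.22 SE), although reads of calmodulin genes, whose coding sequences are alike, may be divided among them. The adjusted p in limma was 3.48e-05 for Prkce and 0.000123 for Calm3. In Res-T, 4 of these 12 genes were higher with trauma and 0 lower, where limma called 3.3% of all genes higher and 2.88% lower. Without Res-T without trauma replicate 1, 0 of the 12 passed in that comparison, and calls over all genes were 101 against 610. The lists of related genes here and below, and both families, were chosen with earlier results of these data known. Their counts, medians and p-values are therefore a description and no independent test. Beyond the families, the genes named were among the 3 with the smallest p of their list in the comparison described.

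Genes of PIP2 metabolism, which make, cut or dephosphorylate the lipid that GMC proteins bind or handle its products, moved both ways in Sus-T without trauma. Of 16 measured members 5 were higher and 4 lower, against 12.4% and 15% of all genes, with a median log2 difference of -0.01. Without Sus-T replicate 1, 3 were higher and 3 lower. Plcl2, a phospholipase C-like protein, rose 7.52-fold (384 ± 195 in Sus-T, n = 2, and 48.5 ± 16.5 in Res-T, n = 3, SD). Its relative Plcl1 fell to 662 ± 66.2 in Sus-T, against 2086 ± 287 in Res-T (SD, log2 difference -1.65 ± 0.21 SE). Dgkz, a diacylglycerol kinase, rose 3.14-fold. The adjusted p in limma was 0.000278 for Plcl2, 4.98e-05 for Plcl1 and 5.29e-05 for Dgkz.

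Partners of Ena/VASP proteins were higher in 5 of 14 measured members and lower in 1 in Sus-T without trauma, against 12.4% and 15% of all genes, with a median log2 difference of 0.51. Without either Sus-T library 2 were higher, and without Res-T replicate 1, 3 were. Sptan1, the alpha-spectrin of the membrane skeleton, rose 2.24-fold to 3225 ± 322 (SD, n = 2) in Sus-T, against 1437 ± 115 (SD, n = 3) in Res-T. Lpp, a focal adhesion protein of the zyxin family, rose 2.42-fold. The tyrosine kinase gene Abl1 fell to 549 ± 142 (SD, n = 2) in Sus-T, against 1317 ± 131 (SD, n = 3) in Res-T. The adjusted p in limma was 0.000104 for Sptan1, 0.00408 for Lpp and 0.0017 for Abl1.

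Other growth cone proteins did not share a direction in Sus-T without trauma: of 24 measured members 7 were higher and 5 lower, against 12.4% and 15% of all genes, with a median log2 difference of 0.13. Without Sus-T replicate 3, 4 were higher and 4 lower. Gpm6a, a membrane glycoprotein of neurites, rose 4.63-fold (log2 difference 2.21 ± 0.35 SE). The tubulin-binding stathmin gene Stmn4 fell to 634 ± 42.2 in Sus-T (SD, n = 2), against 1588 ± 185 in Res-T (SD, n = 3). Shtn1, the axon outgrowth protein shootin, fell to 382 ± 52.5 in Sus-T, against 1182 ± 57.3 in Res-T. The adjusted p in limma was 0.000215 for Gpm6a, 0.000249 for Stmn4 and 0.000439 for Shtn1. Genes of actin turnover were higher in 11 of 31 members and lower in 4, against the same shares of all genes, with a median log2 difference of 0.55. The count of higher members was 7 without Sus-T replicate 1, 6 without Sus-T replicate 3 and 7 without Res-T replicate 2, and that of lower members was 0, 2 and 0. Without Res-T replicate 3, 1 was lower. Arpc4 and Arpc2, subunits of the filament-branching Arp2/3 complex, rose 2.05-fold and 2.35-fold, and the formin gene Diaph1 rose 2.07-fold (adjusted p = 0.00224, 0.00395 and 0.0065 in limma). Diaph1 did not pass without Sus-T replicate 3 (adjusted p = 0.0622 in limma).

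Calls over all genes in Sus-T against Res-T without trauma also fell from 2706 with a library left out. They were 2055 to 2096 without a Res-T library, and fewer without a Sus-T library. A lower count in a list with a library left out is thus not by itself particular to that list. The calls of these related genes were made without a term for the cell mixture. With the oligodendrocyte covariate, 0 of the 101 genes of these lists and both families passed in Sus-T against Res-T without trauma. Of all 9872 genes 25 passed. Without the covariate 37 of the 101 were higher and 15 lower, and 2706 of all genes passed. The covariate itself did not overlap between these groups (mean log2 signal 10.57 to 11.32 in Sus-T and 12.67 to 12.96 in Res-T). The fit therefore cannot tell group and covariate well apart, and standard errors grew (Basp1 from 0.23 to 0.67). The 15 named genes that had passed kept their direction, with adjusted p from 0.0593 to 0.851 in limma. Relative to the mean of 4 neuron markers 7 of the 15 kept their direction, and relative to 2 pyramidal neuron markers 4 did.

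With trauma, 0 genes of these lists passed in Sus-T against Res-T, as for all genes, and few had libraries apart. Libraries did not overlap, with Sus-T higher, in 1 of 12 genes acting on Basp1, 3 of 16 of PIP2 metabolism, 1 of 14 Ena/VASP partners, 2 of 24 growth cone genes and 1 of 31 of actin turnover, against 3.46% of all genes. With Sus-T lower, they did not overlap in 1 gene of PIP2 metabolism and 1 of actin turnover, against 2.29% of all genes. Prkce had a log2 difference of 1.14 ± 0.26 and Prkcb of 1.10 ± 0.26 (SE, adjusted p = 0.0971 and 0.115 in limma). Plcl2 had 1.23 ± 0.37, Dgkz 0.45 ± 0.17 and Pip4k2b, a phosphatidylinositol phosphate kinase, 0.52 ± 0.20 (SE). Sptan1 had 0.41 ± 0.13, the vinculin gene Vcl 0.59 ± 0.24 and Lpp 0.43 ± 0.23 (SE). Of the growth cone genes, Dpysl3, a collapsin response mediator, had 1.31 ± 0.36 (116 ± 10.3 in Sus-T and 48.1 ± 16.4 in Res-T, SD, n = 4 each), the doublecortin-like kinase gene Dclk1 0.71 ± 0.24 and Tubb2b 0.99 ± 0.38 (SE). Arpc5l had 0.97 ± 0.26, the cortactin gene Cttn -0.77 ± 0.21 and Actr2 0.48 ± 0.19 (SE).

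Markers of several cell types also differed between the groups, some in the direction of both genes and oligodendrocyte markers in the other. Oligodendrocyte markers, of which 19 of 20 had rows, were lower in 17 and higher in 0 in Sus-T without trauma, where limma called 15% of all genes lower and 12.4% higher. Their summed signal was 4.39 to 5.74% of the library total in Sus-T with trauma, 2.11 to 3.17% in Sus-T without trauma, 5.11 to 6.88% in Res-T with trauma and 6.86 to 7.99% in Res-T without trauma. Astrocyte markers (13 of 15 with rows) made up 0.84 to 1.76% in Sus-T with trauma, 1.17 to 2.19% in Sus-T without trauma, 0.379 to 0.96% in Res-T with trauma and 0.379 to 0.583% in Res-T without trauma. Neuron markers had rows for 4 of 11 genes (Eno2, Map2, Syn1 and Tubb3), and made up 0.121 to 0.18% in Sus-T with trauma, 0.171 to 0.202% in Sus-T without trauma, 0.045 to 0.0932% in Res-T with trauma and 0.0276 to 0.0356% in Res-T without trauma. Nefl, Nefm, Rbfox3, Snap25, Stmn2, Syt1 and Thy1 had no row, although the reporter was driven by the Thy1 promoter. In every library the 19 oligodendrocyte markers held a larger share than these 4 neuron markers, and the reason was not tested. Of 11 pyramidal neuron markers only Camk2a and Camk2n1 had rows, while the vesicular glutamate transporter genes Slc17a7 and Slc17a6 and the factors Neurod6 and Tbr1 had none, so the labelled cell type could be checked only in part. Microglia markers (3 of 11 with rows, C1qa, Cx3cr1 and Tmem119) made up 0.00692 to 0.0302% in Sus-T with trauma, 0.0221 to 0.0273% in Sus-T without trauma, 0.0089 to 0.0184% in Res-T with trauma and 0.00597 to 0.00934% in Res-T without trauma. In Sus-T without trauma, 7 of 13 astrocyte, 3 of 3 microglia, 3 of 4 neuron and 2 of 2 pyramidal neuron markers were higher in limma and none of these lower. Astrocyte markers were higher in 4 without Res-T replicate 2 and in 2 without Sus-T replicate 3. Microglia markers were higher in 1 without Res-T replicate 1 or 2 or Sus-T replicate 3, and in 0 without Sus-T replicate 1. Calls over all genes fell as well with any of these libraries left out. Of the measured markers of oligodendrocyte precursors 1 of 4 was higher and 3 lower, of endothelial and mural cells 1 of 5 was higher and 1 lower, and of GABAergic interneurons 0 of 2 were higher and 1 lower.

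**Figure D5:**
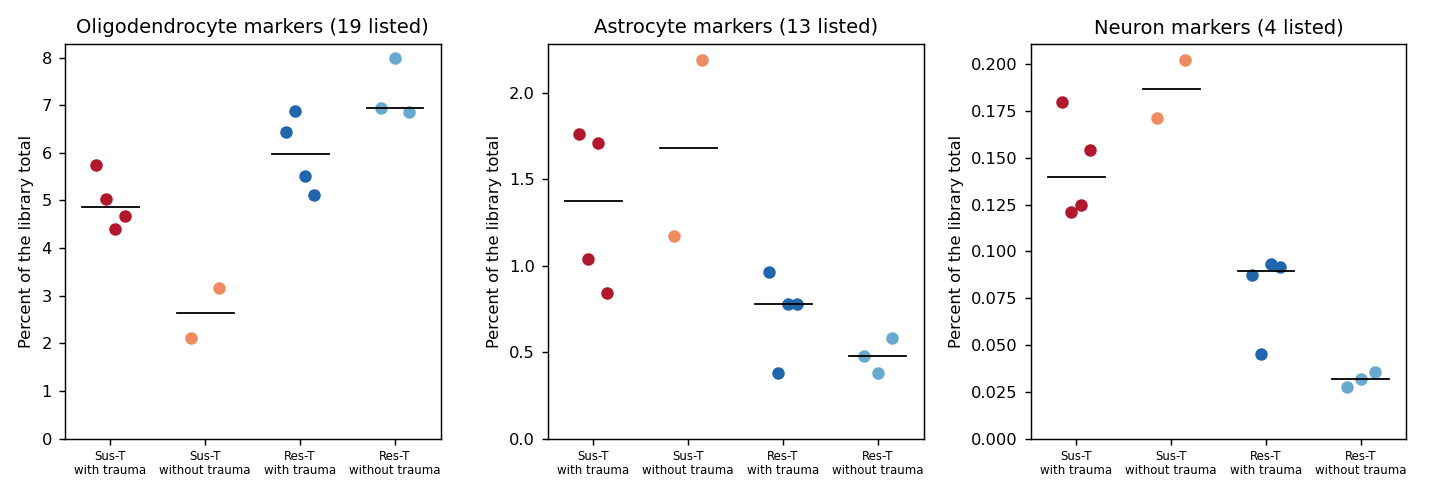
Summed signal of oligodendrocyte (left), astrocyte (middle) and neuron (right) markers as percent of the library total (y axes from 0, on different scales) in each amygdala library by group, with points for libraries and lines for medians. Neuron markers follow the group order of Basp1 and Evl, and oligodendrocyte markers run the other way (6.86 to 7.99% in Res-T without trauma, 2.11 to 3.17% in Sus-T without trauma).

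Taken relative to the mean log2 signal of the 4 neuron markers of the same library, Basp1 stood at -0.60 to -0.14 in Sus-T with trauma, -0.16 to 0.06 in Sus-T without trauma, -1.12 to -0.45 in Res-T with trauma and -1.50 to -1.05 in Res-T without trauma. The log2 difference of Basp1 between Sus-T and Res-T without trauma was 1.28 on this scale, and that of Evl 0.86, against 3.11 and 2.69 on the scale of the library. With trauma the relative log2 difference was 0.34 for Basp1 and -0.01 for Evl. Relative to the 2 measured pyramidal neuron markers, the differences turned round to -0.99 ± 0.71 for Basp1 and -1.41 ± 0.76 for Evl without trauma, and to -0.87 ± 0.55 and -1.22 ± 0.59 with trauma (SE). On that scale Evl passed the threshold with trauma in the opposite direction (adjusted p = 0.0456 in limma, against 0.455 on the scale of the library) and Basp1 did not (adjusted p = 0.12 in limma). By the same scale 8650 of 9872 genes passed with trauma. With oligodendrocyte markers in the model as a covariate, the log2 difference of Evl without trauma was 3.15 ± 0.88 (SE) and that of Basp1 3.13 ± 0.67 (SE). The part of the cell mixture in the levels of either gene was not tested further.

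In the medial prefrontal cortex, neither gene had a row, and of their relatives only Enah had one. Its signal was 924 ± 197 in Sus-T (SD, n = 4) and 704 ± 187 in Res-T (SD, n = 3) with trauma, a log2 difference of 0.40 ± 0.28 (SE), which did not pass (adjusted p = 0.319 in limma, where 14% of all genes were called higher).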

How the data were processed

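The submitters' processing notes name bcl2fastq 2.20, Salmon 1.2 and the build GRCm38.p6. What the authors deposited is taken here to be a normalized signal of arbitrary scale, and how they normalized it is not given in the sources used here. Of amygdala values under 20, 98.6 to 100% per library were distinct to 4 decimals, so steps of whole reads were not recovered and the read depth is unknown. The library totals of signal ran from 3267967 to 4021272 in the 13 amygdala libraries and from 2095138 to 2444486 in the 13 prefrontal ones. Of 29 described samples, 1 amygdala and 2 prefrontal samples that the submitters removed had no column. Values of a library were identical in each table that held it. Centred by gene, log2(value - 1) varied in 11 of 12 possible dimensions in the amygdala libraries and in 10 of 12 in the prefrontal ones. The spread may therefore be too small and p-values too low in both regions. The 9 residual degrees of freedom of the limma fits were not lowered for this. Whether group differences were changed as well was not tested. The lost amygdala dimension had a squared weight of at most 0.0002 on each library of Res-T without trauma, and of 0.1416 on each of Sus-T without trauma. The libraries with trauma held 0.716 of it, with 0.2731 on Res-T replicate 1 and 0.1608 on Sus-T replicate 2.

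A filter on a mean of 1 or more kept all 9872 and 6080 genes. For each region, log2(value + 1) was modelled by limma 3.58.1 (R 4.3.3, 4 groups, trend and robust moderation, 9 residual degrees of freedom, Benjamini-Hochberg adjustment over all genes). The fit was tested on simulated data. Symbols came from GENCODE M21 identifiers without version and promoters from RefSeq (GRCm38.p6). The members and lists were chosen with earlier results of these data known. All measured relatives of both families and, from each other list of related genes, the 3 genes with the smallest p per comparison were named, with the 5 most alike genes per member; genes withheld from reporting were not replaced and are not reported here. Marker lists covered oligodendrocytes, their precursors, astrocytes, microglia, endothelial and mural cells, interneurons, neurons and pyramidal neurons. Alternatives were a pseudocount of 10, a minimum mean of 10, quantile normalization, moderation without trend, the compared groups alone, an oligodendrocyte covariate, a replicate block, each library left out, and, chosen after seeing the data, levels relative to neuron markers. The recount of related genes under these alternatives was also added after seeing the data. It covered Sus-T against Res-T without trauma, and trauma in Res-T.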

Additional observations from a re-analysis of the deposited data

Results flagged for a closer look

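Basp1 and Evl differed between trauma in Sus-T and trauma in Res-T, because every Sus-T library with trauma lay below both without, and every Res-T library with trauma lay above all 3 without. The difference of the trauma effects was -2.29 (log2) for Basp1 and -2.22 for Evl, and it was not tested, since the genes were chosen on libraries of these comparisons. Basp1 in Sus-T with trauma had a library far from the others, replicate 2 at 305.3, against 349 to 357 in the other libraries of its group.

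Among the related genes named above, 6 also had trauma libraries apart from those without trauma in opposite directions in Sus-T and Res-T. This difference was not tested, because the genes were named for small p-values in comparisons that share its libraries. The log2 difference, Sus-T minus Res-T, was -1.01 for Arpc4, -1.20 for Dgkz and -0.76 for Sptan1, and 1.46 for Plcl1, 1.64 for Shtn1 and 1.26 for Stmn4. Over all 101 measured genes of the related lists, named or not, limma called the difference higher in 7 and lower in 7, against 4.76% and 1.98% of all genes. These counts were not redone with a library left out or with the oligodendrocyte covariate. With that covariate 2 of all genes were called, against 665 without it.

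Single libraries stood far from the rest of their group of 4 in 4 related genes. In Sus-T with trauma these were signals of 265.6 for Arpc4, 641.5 for Dgkz and 1317 for Enah, and in Res-T with trauma 418.1 for Actr2, 342.1 for Dgkz and 485.7 for Enah. With Basp1 there were 7 such libraries in 58 groups of 4, where chance alone flags about 1 in 20.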

How the results depend on the processing

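Of 88 values of Basp1 and Evl under the alternatives other than leaving out a library, 65 kept their direction and stayed within the residual SD or on their side of the threshold. With a pseudocount of 10, the log2 difference without trauma was 2.92 for Basp1 and 2.35 for Evl, the Evl trauma effect in Res-T 1.53 and the Evl difference of trauma effects -1.91, since a larger pseudocount shrinks low values. With the oligodendrocyte covariate Evl had 3.15 without trauma, -0.67 for trauma in Sus-T and -2.61 for the difference of trauma effects, and the cause was not tested. Relative to the 4 neuron markers, Basp1 had 1.28 and Evl 0.86 without trauma, 0.61 and 0.63 for trauma in Res-T and -0.94 and -0.87 for the difference, and Evl turned to -0.01 with trauma. Relative to the 2 pyramidal neuron markers, Basp1 and Evl turned to -0.99 and -1.41 without trauma, -0.87 and -1.22 with trauma, -0.39 and -0.37 for trauma in Res-T, and 0.11 and 0.19 for the difference, while trauma in Sus-T was -0.28 for Basp1. By construction these scales subtract markers that were higher in Sus-T without trauma.

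Leaving out each library in turn, the log2 difference ran from 3.0 to 3.18 for Basp1 and 2.57 to 2.87 for Evl without trauma, and from 0.71 to 0.91 and 0.39 to 0.59 with trauma (limma's adjusted p from 0.0834 to 0.192 and 0.34 to 0.648). Over the other alternatives, apart from those relative to neuron markers, limma's adjusted p of Basp1 with trauma ran from 0.0728 to 0.23. The replicate numbers were not shown to pair libraries, since deviations of same-numbered libraries with trauma correlated at -0.155 to 0.159. With the replicate block Basp1 had 0.82 with trauma and 3.09 without, and Evl 0.48 and 2.70, and the block changed no call of either gene. The same block gave 10 calls among all genes with trauma, against 0 without it. Other alternatives gave 0 to 14 there, 823 relative to the neuron and 8650 relative to the pyramidal neuron markers. Without trauma, all-gene calls were 2706, 25 with the oligodendrocyte covariate, and 1565 to 2096 with a library left out. For trauma in Res-T they were 610, 101 to 708 with a library left out, and 339 with moderation without trend. For the difference of trauma effects they were 665, 59 to 810 with a library left out, 366 without trend and 2 with the covariate. In these 3 comparisons they were 5851 to 8173 relative to the neuron and 7079 to 9779 relative to the pyramidal neuron markers. No alternative could be run in the prefrontal cortex, where neither gene had a row.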
